A study of Mus musculus with 6 samples.

Results

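MHC class I molecules display peptides from inside a cell to CD8 T cells and to natural killer cells, and nearly every nucleated cell makes them. Proteasomes cut proteins into peptides, the TAP transporter moves the peptides into the endoplasmic reticulum, and tapasin holds TAP to an empty class I molecule, which is a heavy chain bound to beta-2 microglobulin. Interferon gamma raises most genes of this route, in part through the transactivator NLRC5, and the inducible proteasome subunits it raises take the place of the standard catalytic ones. In the heart, endothelial cells and leukocytes carry much class I.

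The 10 genes described here were chosen by symbol and cover each step of the route. They are the light chain B2m, the classical heavy chains H2-K1 and H2-D1, the transporter subunits Tap1 and Tap2, the tapasin gene Tapbp, the transactivator Nlrc5, and the inducible proteasome subunits Psmb8, Psmb9 and Psmb10. All 10 of 10 were found among the 50600 genes of the count table, and all 10 passed the filter of more than 1 CPM (the reads of a gene scaled to a common library size) in at least 2 libraries that left 13475 protein-coding genes.

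RNA came from freshly sorted cardiac side population (SP) cells of mice of 8 to 12 weeks, that is, heart cells that pump out the DNA dye Hoechst, taken from suspensions depleted of cardiomyocytes and erythrocytes. The 3 wild-type (wt) libraries came from strain C57BL/6NRj, and the 3 libraries labelled flt3L-/- came from C57BL/6Flt3Ltml/mx, a line with a disrupted gene for the cytokine Flt3 ligand on a C57BL/6N background. Each library pooled the cells of 4 mice, and the animals of both groups were euthanised with pentobarbital. A wt and an flt3L-/- sort shared each of 3 sorting dates (22 and 24 August 2016 and 29 August 2017), and these pairs, numbered 1 to 3 by date, are the replicates. The comparison asks what the absence of Flt3 ligand does to the RNA of SP cells.

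Total counts were 26775161 to 28294568 in the wt libraries and 24370913 to 31145519 in those labelled flt3L-/-, so that 3 counts were 0.109 to 0.127 CPM. Flt3l, the targeted gene, was at 8.67, 10.8 and 12.1 CPM in the wt libraries of pairs 1, 2 and 3 and at 13.6, 12.4 and 14.5 CPM in those labelled flt3L-/-. It was therefore not lower in any library labelled flt3L-/-. Counts per gene do not show whether the reads came from the disrupted part, so this check says nothing on the allele, and the groups are named by their labels throughout. All 10 endothelial markers searched (such as Pecam1 and Kdr) had counts in every library and summed to 7786 to 10391 CPM. Leukocyte and fibroblast markers were also found in every library, with values given beside the results that they touch.

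The sequences before the start sites are shown first because members share motif letters there. On GRCm38, 7 members lie on chromosome 17, 2 on chromosome 8 (Nlrc5 and Psmb10) and B2m on chromosome 2. Psmb9, Tap1, Psmb8 and Tap2 follow each other within 34.3 kb, and the RefSeq starts of Psmb9 and Tap1 point away from each other with 225 bases between them. RefSeq promoter windows (GRCm38.p6, 250 bases before to 50 after a start) were at hand for 8 of the 10 members and not for Tap2 and Nlrc5. The sequences below are the 180 bases before the start of B2m (chr2:122147507-122147686, plus strand), H2-K1 (chr17:34000348-34000527, minus strand), H2-D1 (chr17:35262914-35263093, plus strand) and Psmb8 (chr17:34198015-34198194, plus strand), and the 225 bases between Psmb9 and Tap1 (chr17:34187331-34187555, plus strand, which is the strand of Tap1). Capitals mark every match, on either strand, to the X2 box core TGACG, the Y box CCAAT, the NF-kappaB consensus, the interferon response element core GAAANNGAA and the gamma interferon activation site TTCNNNGAA.
B2m: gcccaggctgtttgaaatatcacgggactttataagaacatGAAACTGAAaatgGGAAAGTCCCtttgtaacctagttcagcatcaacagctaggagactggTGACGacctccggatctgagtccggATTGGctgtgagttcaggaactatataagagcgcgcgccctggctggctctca
H2-K1: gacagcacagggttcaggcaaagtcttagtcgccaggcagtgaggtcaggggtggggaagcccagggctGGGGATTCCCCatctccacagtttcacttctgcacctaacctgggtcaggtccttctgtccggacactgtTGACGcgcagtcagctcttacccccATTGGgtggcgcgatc
H2-D1: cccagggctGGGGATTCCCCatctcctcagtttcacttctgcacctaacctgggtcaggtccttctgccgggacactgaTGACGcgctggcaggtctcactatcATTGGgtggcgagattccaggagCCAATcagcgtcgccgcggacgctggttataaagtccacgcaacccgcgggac
Psmb8: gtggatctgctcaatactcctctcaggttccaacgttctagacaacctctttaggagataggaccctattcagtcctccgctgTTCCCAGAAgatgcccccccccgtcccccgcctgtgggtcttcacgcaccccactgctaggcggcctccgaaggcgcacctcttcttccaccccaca
Psmb9 to Tap1: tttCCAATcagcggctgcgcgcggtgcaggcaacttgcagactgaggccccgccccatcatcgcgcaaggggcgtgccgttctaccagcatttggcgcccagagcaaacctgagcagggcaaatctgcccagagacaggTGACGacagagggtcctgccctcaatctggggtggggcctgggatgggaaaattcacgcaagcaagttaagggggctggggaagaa

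The X2 and Y boxes are parts of the promoter module through which NLRC5 is known to act, bound by factors of the CREB and NF-Y families. The X2 core was in the windows of 5 of 8 members and of 20.8% of all 32851 promoter windows, and the Y box in 6 of 8 members and 37.4% of windows. In B2m, H2-K1 and H2-D1 alike, TGACG was followed after 20 bases by ATTGG, the Y box read on the other strand. That arrangement, which was looked up after the sequences had been seen, occurred in 31 of all windows (0.0944%), belonging to 27 genes that included the class I heavy chain H2-M3. The NF-kappaB consensus was in the windows of the same 3 members (8.46% of all windows), the interferon response element core in that of B2m only (8.56%), and the gamma interferon activation site in that of Psmb8 only (8.30%). These matches are descriptions of letters and not of binding. Only these fixed patterns were searched, so a window without a match may still hold a variant form of an element. This applies to H2-K1 and H2-D1 and the interferon response element core.

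Class I transcripts were abundant in SP cells of both labels. Summed over the 10 members, the wt libraries of pairs 1, 2 and 3 held 6610, 8226 and 9224 CPM, and the libraries labelled flt3L-/- held 7741, 9964 and 14882 CPM. The sum was higher in the library labelled flt3L-/- of every pair, and the library of pair 3 stood well above the other 5. In bulk RNA, fewer cells of a type and less RNA per cell cannot be told apart.

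**Figure D1:**
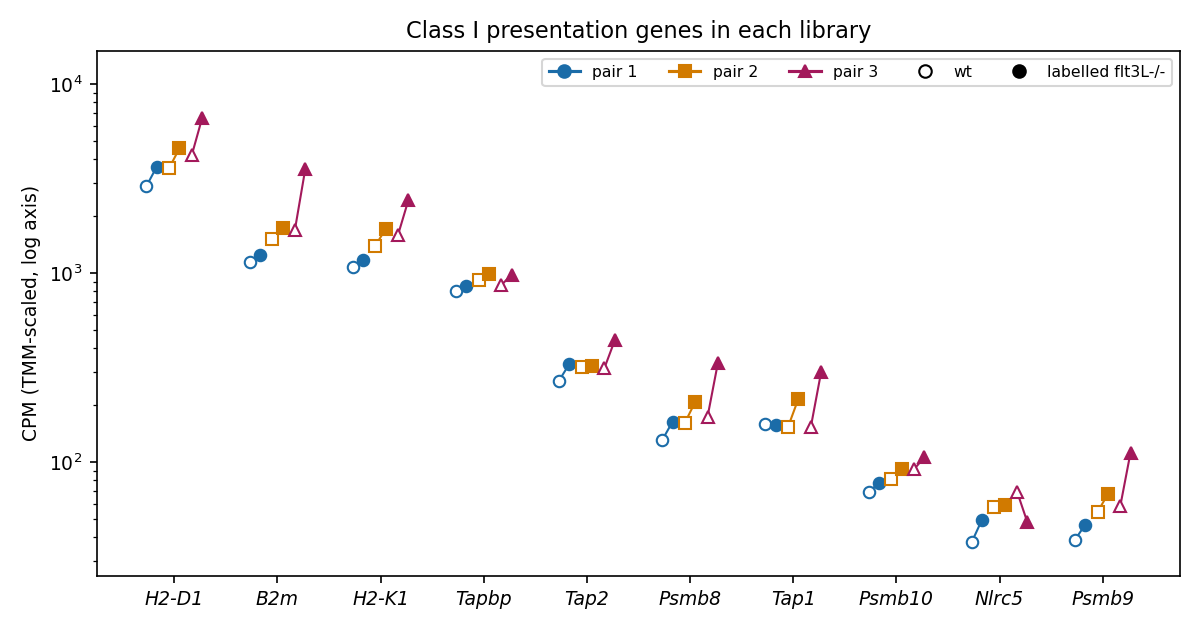
Level of each class I presentation gene in the 6 libraries, as CPM on a log axis (open symbols, wt; filled symbols, labelled flt3L-/-; lines join the libraries of a sorting date). H2-D1 reached 6592 CPM in the pair 3 library labelled flt3L-/-, which was the highest of the 6 libraries for 8 of the 10 genes.

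Levels of different genes can be compared only per length. In CPM per kilobase of all exons, averaged over the 6 libraries, B2m was highest at 2106 ± 1023 (SD, n = 6), followed by H2-D1 at 1646 ± 499, H2-K1 at 532 ± 167 and Tapbp at 249 ± 20.4. Tap2 (87.8), Psmb8 (57.7), Psmb10 (50.5), Tap1 (34.5) and Psmb9 (17.2) came next, and Nlrc5 was lowest at 6.32 ± 1.31. The light chain, the heavy chains and tapasin were thus well above the transporter and the inducible proteasome subunits. Of the 9 neighbouring pairs in this order, 8 kept it in 6 of 6 libraries (exact sign-flip permutation test over the libraries, two-sided, p = 0.0312, adjusted over the 9 p = 0.0352), and 0.0312 is the smallest p that 6 libraries allow. Psmb8 and Psmb10 kept it in 4 of 6 and did not differ beyond their spread (exact p = 0.281, adjusted p = 0.281). The order was taken from the means of these same libraries, which favours agreement. These p-values therefore describe only how the order repeated across libraries, and not the effect of the length chosen. With the length of the longest protein-coding transcript, B2m and H2-D1 could not be separated (2106 and 2020, B2m higher in 2 of 6), Psmb8 (120) stood above Tap2 (96.5), and Psmb10 (65.6) and Tap1 (64.0) could not be separated.

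The light and heavy chains make up the molecule itself. B2m was at 1146, 1506 and 1698 CPM in the wt libraries of pairs 1, 2 and 3 and at 1248, 1725 and 3543 CPM in those labelled flt3L-/-. The groups overlapped, and the value of pair 3 was 2.09 times that of its wt partner, against 1.09 and 1.15 times in pairs 1 and 2. The fitted log2 fold change was 0.46 ± 0.25 (SE, edgeR quasi-likelihood test, unadjusted p = 0.126). H2-K1, a classical heavy chain, was at 1074, 1394 and 1596 CPM in wt and at 1172, 1715 and 2433 CPM in the flt3L-/- group, and its groups overlapped (log2 fold change 0.34 ± 0.17, edgeR, unadjusted p = 0.105). H2-D1, the other classical heavy chain of this strain, was at 2880, 3582 and 4208 CPM and at 3645, 4567 and 6592 CPM. It was 1.27, 1.28 and 1.57 times as high as in the wt partner, so that all pairs leaned the same way while the groups overlapped (log2 fold change 0.45 ± 0.18, edgeR, unadjusted p = 0.0552).

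The transporter and tapasin load the peptides. Tap1 was at 159, 153 and 152 CPM in wt and at 157, 216 and 298 CPM in the flt3L-/- group. Its wt libraries lay close together, pair 1 was level (0.992 times its wt partner) and pairs 2 and 3 stood at 1.41 and 1.95 times (log2 fold change 0.48 ± 0.22, edgeR, unadjusted p = 0.0815). Tap2 was at 269, 319 and 314 CPM in wt and at 330, 321 and 440 CPM in the flt3L-/- group. It was the only member whose groups did not overlap, a pattern in that direction that 3.53% of all genes tested shared, and pair 2 differed by 1.01 times only (log2 fold change 0.26 ± 0.15, edgeR, unadjusted p = 0.148). Tapbp varied least, with 806, 918 and 863 CPM in wt and 853, 993 and 977 CPM in the flt3L-/- group (log2 fold change 0.12 ± 0.14, edgeR, unadjusted p = 0.411).

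Psmb8 and Psmb9, inducible catalytic subunits of the proteasome, had the largest fitted log2 fold changes of the members. Psmb8, which replaces Psmb5, was at 130, 161 and 174 CPM in wt and at 163, 208 and 334 CPM in the flt3L-/- group. It was 1.25, 1.29 and 1.92 times its wt partner, and only the library labelled flt3L-/- of pair 1 fell within the wt range (log2 fold change 0.54 ± 0.18, edgeR, unadjusted p = 0.0291). Psmb9, which replaces Psmb6, was at 38.6, 54.3 and 58.2 CPM in wt and at 46.5, 67.5 and 112 CPM in the flt3L-/- group, with the same overlap by the pair 1 library (log2 fold change 0.51 ± 0.19, edgeR, unadjusted p = 0.0436). Psmb10, which replaces Psmb7, was at 69.4, 81.2 and 91.2 CPM and at 77.2, 91.7 and 106 CPM, with like differences in all pairs (1.11, 1.13 and 1.16 times, log2 fold change 0.18 ± 0.12, edgeR, unadjusted p = 0.188).

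Nlrc5, the transactivator of class I genes, was the exception. It was at 37.6, 57.9 and 69.6 CPM in wt and at 49.4, 59.5 and 47.9 CPM in the flt3L-/- group. It was 1.32 times as high as in the wt partner in pair 1, 1.03 times in pair 2 and 0.689 times in pair 3, the pair in which the other 9 members differed most in the opposite direction (log2 fold change −0.03 ± 0.22, edgeR, unadjusted p = 0.880).

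**Figure D2:**
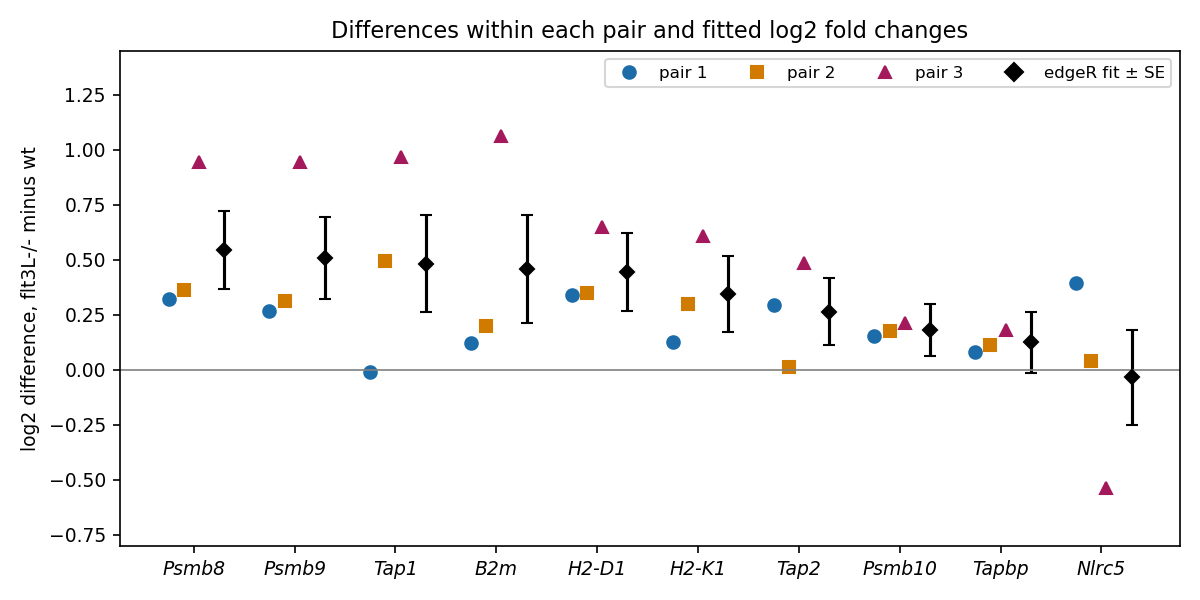
Log2 difference between the library labelled flt3L-/- and its wt partner for each member and pair (coloured symbols, log2 CPM with a prior count of 2), and the edgeR log2 fold change with its standard error (diamonds). Pair 3 gave the largest difference for 9 of the 10 members and the lowest, −0.54, for Nlrc5.

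No member passed an adjusted p of 0.05 over the 13475 genes (edgeR, smallest adjusted p of a member 0.973), and 0% of all genes did. At an unadjusted p under 0.05, 2 of 10 members were higher (Psmb8 and Psmb9) and 0 lower, where 3.59% of all genes passed in either direction and 1.11% were higher. DESeq2 called 21 of all genes and 0 members at an adjusted p of 0.05, with 3 members (H2-D1, Psmb8 and Psmb9) under an unadjusted p of 0.05. The log2 difference was above 0 in each of 3 pairs for 8 of 10 members, beside 14.2% of all genes, and below 0 in each for 0 members, beside 11.5% of all genes. The exceptions were Tap1 (pair 1) and Nlrc5 (pair 3). The median fitted log2 fold change was 0.40 over the members and −0.00027 over all genes tested.

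The size of these differences rested on the sort of 2017. The median difference of the members was 0.21 in pair 1, 0.25 in pair 2 and 0.63 in pair 3, while that of all genes was 0.040, 0.0035 and 0.014. Without pair 3, the median fitted log2 fold change of the members was 0.21 and no member had an unadjusted p under 0.05 in edgeR. Without pair 1 these were Tap1 and Psmb8, and without pair 2 there were none, although the median stayed at 0.48 and 0.41. The members also differed among the wt libraries, since pair 1 was the lowest wt library for 9 of 10 members and pair 3 the highest for 7.

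Markers of other cell types also differed between the libraries of a pair. The 6 leukocyte markers, among them Ptprc, which encodes CD45, summed to 224, 699 and 1452 CPM in the wt libraries of pairs 1, 2 and 3 and to 319, 772 and 197 CPM in those labelled flt3L-/-, with no marker at 0 in any library. Their log2 ratio was 0.51, 0.14 and −2.88, so that in pair 3 the leukocyte markers were far lower in the library labelled flt3L-/- where the class I sum was higher by 0.69 on the same scale. The sums of macrophage and monocyte markers had ratios of 2.01, 0.58 and −2.40 and those of lymphocytes and NK cells −0.68, −0.05 and −2.81. Of the 5 lymphocyte and NK cell markers that passed the filter, 3 (Ncr1, Klrb1c and Nkg7) were lower in each pair, beside 11.5% of all genes. Only Klrb1c had an unadjusted p under 0.05 (edgeR, 0.0169). The T cell markers Cd3e and Cd3g were higher in pairs 1 and 2 and lower in pair 3. Among the 9 macrophage and monocyte markers, Lyz2 alone was at 17.1, 507 and 1527 CPM in wt and at 246, 844 and 67.4 CPM in the flt3L-/- group. Their median log2 difference in pair 3 was −1.83, but Ly6c2 and C1qb were higher in each pair, and 0 markers were lower in each. The 8 fibroblast markers summed to 17545, 10864 and 7378 CPM in wt and to 7575, 11382 and 3494 CPM in the flt3L-/- group, with none at 0 in any library, and their ratio was −1.21, 0.07 and −1.08. Of these, 4 (Pdgfra, Col1a1, Col1a2 and Col3a1) were lower in each pair and 0 higher, beside 11.5% and 14.2% of all genes. The 3 collagen genes had an unadjusted p under 0.05 (edgeR), while Dcn, Lum, Tcf21 and Pdgfrl were higher in pair 2. Of 8 pericyte and smooth muscle markers 3 were lower in each pair and 0 higher, with 2 at an unadjusted p under 0.05 (edgeR). Their summed ratio was −0.70, 0.16 and −0.85. Endothelial marker sums differed by 0.41, −0.31 and 0.12. The 6 cardiomyocyte markers, with none at 0 in any library, summed to 92.4, 123.5 and 110.8 CPM in wt and to 143.5, 156.1 and 128.2 CPM in the flt3L-/- group. Their sum was thus higher in every pair like that of the members, by 0.64, 0.34 and 0.21, and the groups did not overlap, but it differed least in pair 3, where the members differed most. Of the 5 that passed the filter, 4 were higher in each pair, beside 14.2% of all genes tested. Tnni3, cardiac troponin I, had an unadjusted p of 0.0429 (edgeR, log2 fold change 0.40 ± 0.15). The part of cell composition in the class I values was not tested, and sorting year and pair 3 cannot be told apart.

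**Figure D3:**
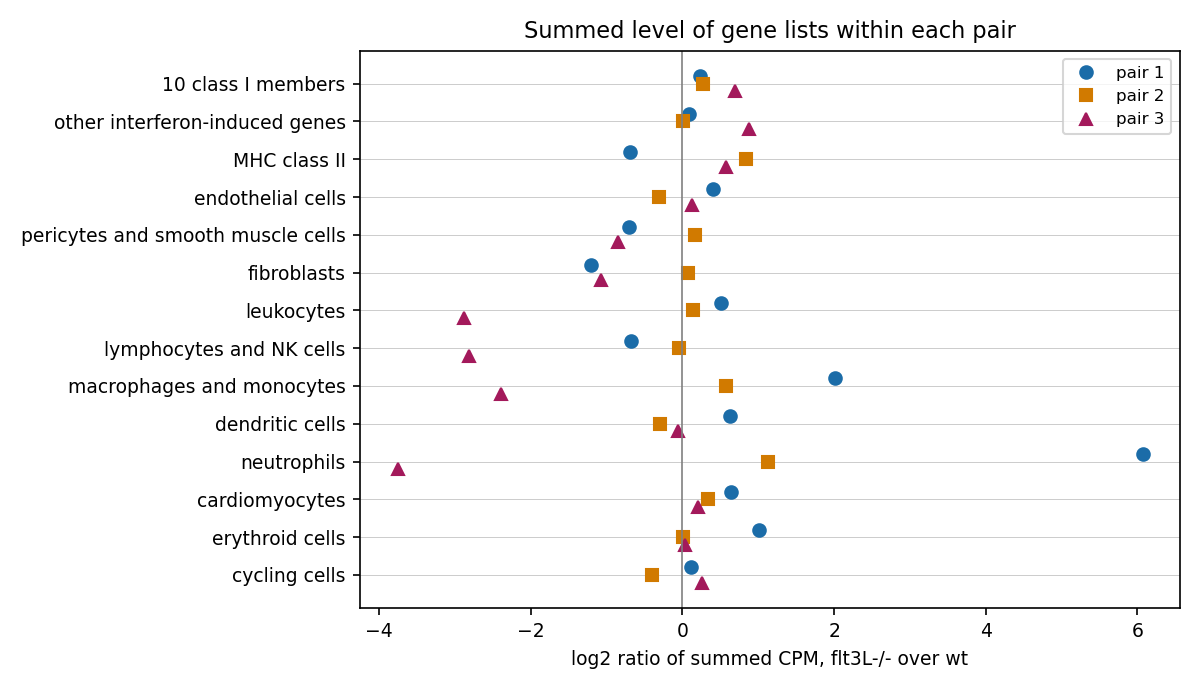
Log2 ratio of summed CPM, library labelled flt3L-/- over its wt partner, for the 10 members, other gene lists and marker lists of cell types, with 1 symbol for each pair. In pair 3 the members stood at 0.69 while the leukocyte markers stood at −2.88, and in pair 1 the 5 neutrophil markers stood at 6.07 from a wt sum of 1.83 CPM.

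Members that work as partners were compared within each library, which removes library scaling. Counts of Psmb8 over Psmb5, the standard subunit it replaces, were 4.21, 4.86 and 4.79 in wt and 4.99, 5.73 and 7.42 in the flt3L-/- group, so the ratio leaned the same way in 3 of 3 pairs and the groups did not overlap. The mean log2 difference was 0.37 ± 0.23 (SD, n = 3 pairs, two-sided exact sign-flip permutation test, p = 0.25, adjusted over 6 ratios p = 0.5), and 0.25 is the smallest p that 3 pairs allow. Psmb9 over Psmb6 was 0.367, 0.533 and 0.492 in wt and 0.507, 0.590 and 0.801 in the flt3L-/- group (mean log2 difference 0.44 ± 0.28, exact permutation p = 0.25, adjusted p = 0.5). Psmb10 over Psmb7 was less regular, with log2 differences of 0.26, 0.20 and −0.11 (exact permutation p = 0.5, adjusted p = 0.6). The standard subunits themselves had fitted log2 fold changes of 0.17 ± 0.14 (Psmb5), 0.07 ± 0.15 (Psmb6) and 0.06 ± 0.16 (Psmb7).

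The transporter subunits form a heterodimer, and Tap1 over Tap2 had within-pair log2 differences of −0.31 in pair 1 and 0.48 in both others (exact permutation p = 0.5, adjusted p = 0.6). H2-K1 over H2-D1 was the steadiest of the 6 ratios, at 0.373, 0.389 and 0.379 in wt and 0.321, 0.376 and 0.369 in the flt3L-/- group. Its mean log2 difference was −0.10 ± 0.098 (exact permutation p = 0.25, adjusted p = 0.5). B2m over the summed heavy chains was lower by 0.16 and 0.14 in pairs 1 and 2 and higher by 0.42 in pair 3, and the exact permutation p was 1.

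**Figure D4:**
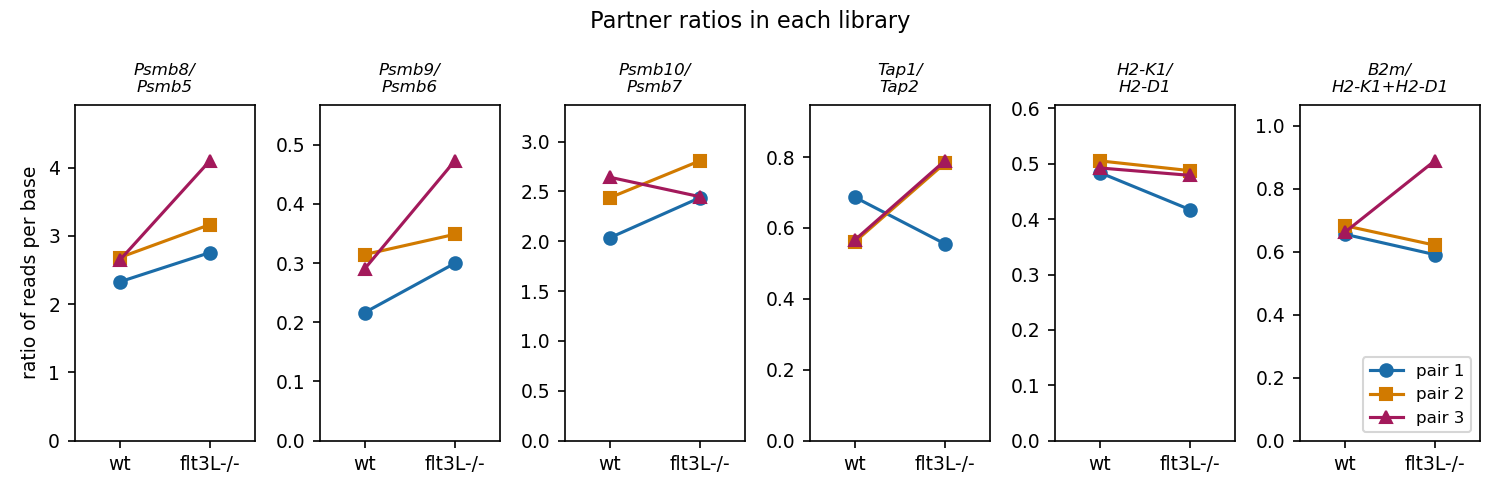
Ratio of partner genes in each library, as reads per base of the longest protein-coding transcript on linear axes that start at 0, with lines joining the libraries of a sorting date. Psmb8/Psmb5 and Psmb9/Psmb6 are higher in the library labelled flt3L-/- of all pairs, by 0.63 and 0.70 on the log2 scale in pair 3.

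Other class I heavy chains, which include the non-classical Qa and Tla molecules, gave a divided picture among 15 tested genes. All tested H2 genes of this list had fitted log2 fold changes above 0, from 0.14 (H2-T24) to 0.57 (H2-Q6). However, H2-Q2, H2-Q4, H2-Q10, H2-T24 and H2-M3 changed sign between pairs. The remaining genes, Cd1d1, Mr1, Fcgrt, Procr and Hfe, were all below 0, from −0.79 (Cd1d1) to −0.0089 (Hfe). In each pair 5 were higher and 2 lower, beside 14.2% and 11.5% of all genes tested. At an unadjusted p under 0.05 in edgeR, 1 was higher and 2 lower, beside 3.59% of all genes in either direction. The median log2 fold change was 0.30. H2-Q7, a Qa-2 antigen gene, was at 173, 312 and 435 CPM in wt and at 211, 392 and 680 CPM in the flt3L-/- group (log2 fold change 0.42 ± 0.15, edgeR, unadjusted p = 0.0363). H2-T23, the Qa-1 gene whose product is a ligand of NK cell receptors, was at 177, 247 and 280 CPM and at 207, 299 and 476 CPM (0.42 ± 0.17, edgeR, unadjusted p = 0.0538), and H2-Q6 differed most in pair 3 (log2 differences 0.18, 0.26 and 1.27). The 2 genes that were lower in the flt3L-/- group at an unadjusted p under 0.05 (edgeR) present other ligands than peptides. Mr1, which presents vitamin B metabolites to MAIT cells, was at 30.8, 26.3 and 17.6 CPM in wt and at 13.4, 18.5 and 12.5 CPM in the flt3L-/- group (−0.73 ± 0.21, edgeR, unadjusted p = 0.0188), and Cd1d1, which presents lipids to NKT cells, was at 6.998, 9.35 and 9.83 CPM and at 4.70, 6.71 and 3.96 CPM (−0.79 ± 0.28, edgeR, unadjusted p = 0.0400). No gene of the lists named here passed an adjusted p of 0.05.

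Chaperones and trimming enzymes act on the peptide and the empty molecule. Of 14 tested genes 5 were higher in each pair and 0 lower, beside 14.2% and 11.5% of all genes tested. Their median log2 fold change was 0.08. Tapbpl, which encodes the tapasin relative TAPBPR, was the only gene with an unadjusted p under 0.05, at 68.8, 73.4 and 87.9 CPM in wt and 83.0, 89.4 and 128 CPM in the flt3L-/- group (0.37 ± 0.13, edgeR, unadjusted p = 0.0397). The general chaperones Hspa5, Pdia3 and Calr were far more abundant, at 4853, 900 and 516 CPM on average in wt, and had log2 fold changes of 0.16 ± 0.18, 0.22 ± 0.14 and 0.23 ± 0.14. Of 8 further proteasome genes 4 were higher in each pair, beside the same 14.2% of all genes, and none had an unadjusted p under 0.05. The activator subunits Psme1 and Psme2, which open the proteasome to peptides, had log2 fold changes of 0.23 ± 0.13 and 0.24 ± 0.12.

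Regulators of the class I genes showed no common direction. Among 23 tested genes 4 were higher and 2 lower in each pair, beside 14.2% and 11.5% of all genes tested. Their median log2 fold change was 0.04. Ifng, the interferon itself, was at 0.855, 1.32 and 3.20 CPM in wt and at 0.401, 0.509 and 0.475 CPM in the flt3L-/- group (−1.75 ± 0.56, edgeR, unadjusted p = 0.0279). These levels rest on few counts, and they were lower in the group in which most members leaned higher. Irf1, a transcription factor that acts downstream of interferon, had log2 differences of −0.07, 0.21 and 0.58. Rfx5, a subunit of the complex that binds the X box, had −0.77, −0.18 and −0.23. Ciita, the relative of NLRC5 that controls class II genes, was at 1.75, 1.28 and 1.27 CPM in wt and at 1.60, 4.63 and 6.69 CPM in the flt3L-/- group (1.40 ± 0.61, edgeR, unadjusted p = 0.0714).

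Interferon-induced genes outside the class I route had a median log2 fold change of 0.30 over 47 tested genes. None had an unadjusted p under 0.05, and 10 were higher in each pair and 1 lower, beside 14.2% and 11.5% of all genes tested. The list medians were 0.18, −0.07 and 0.90 in pairs 1, 2 and 3. The GTPase genes Irgm2 and Gbp7 had log2 differences of 1.12 and 1.02 in pair 3, of 0.27 and 0.04 in pair 2 and of 0.19 and 0.12 in pair 1. Iigp1 and Irgm1, which were also abundant, were below 0 in pair 1 (−0.40, 0.14 and 1.43, and −0.39, 0.19 and 0.78 in pairs 1, 2 and 3). Ifi27l2a, the gene of smallest p, was the 1 lower in each pair (−1.29, −0.12 and −0.59, edgeR, unadjusted p = 0.0547). Ifi35, the next by p, was higher in each pair (0.19, 0.27 and 0.51, edgeR, unadjusted p = 0.0612). In pair 2, the members' median was 0.25 while that of this list was below 0. The 7 class II genes tested differed in sign between pairs, with medians of −0.63, 0.85 and 0.46, and none was higher or lower in each pair. Cd74, the invariant chain, was at 34.0, 99.4 and 107 CPM in wt and at 22.9, 180 and 147 CPM in the flt3L-/- group.

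**Figure D5:**
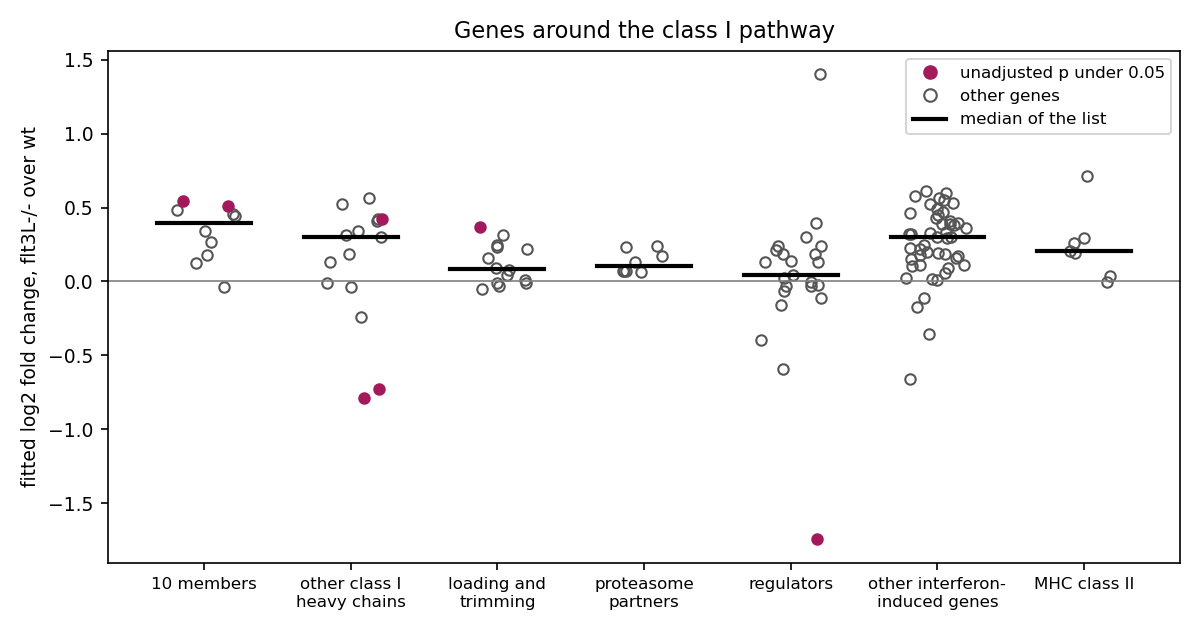
Fitted log2 fold change (labelled flt3L-/- over wt) of each tested gene in the members and in 6 lists around them, with the list median as a bar and genes of unadjusted p under 0.05 filled. Medians were 0.40 for the members, 0.30 for other heavy chains and for other interferon-induced genes, and between 0.04 and 0.20 for the remaining lists.

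Across the 6 libraries, 9 of the 10 members followed each other. Pearson's r of log2 CPM between members other than Nlrc5 lay between 0.68 and 0.99 (median 0.92 over 36 gene pairs), and r of Nlrc5 with the others between −0.12 and 0.49. The 5 genes outside the members with the highest r to the members' mean were Psmb1 (0.999), a standard proteasome subunit, H2-T23 (0.996), Eif4e3 (0.996), Gm8909 (0.995) and Lamtor5 (0.995). Psmb1 was at 67.3, 76.9 and 81.7 CPM in wt and at 74.6, 87.1 and 104 CPM in the flt3L-/- group. In these 6 libraries 4.54% of 13465 genes exceeded an r of 0.9, and the points share sorting dates, scaling and cell composition, so the likeness is a description only.

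Some reads could not be assigned to 1 gene with certainty. The libraries do not mark strand, and exon bases shared with another gene made up 24.9% of Tapbp (Gm19412), 14.7% of Psmb8 (Gm20496), 14.1% of Tap2 (Gm15821) and 5.79% of Psmb9 (Tap1). Of the stretches of 81 bases in their transcripts, 2.32% of H2-K1 and 4.94% of H2-D1 also occurred in other genes, against 0 for B2m, Nlrc5 and Psmb10. Reads with equally good hits were placed at random, so close relatives such as H2-Q6 and H2-Q7 may exchange reads.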

How the data were processed

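RNA-seq counts of 3 wt and 3 flt3L-/- libraries of sorted SP cells were analysed. The authors deposited raw read counts for 50600 genes. Per the study's methods and the submitters' processing notes, unstranded SMART-Seq v4 libraries were sequenced as single reads of 81 bases and aligned by STAR 2.5.2a to mm10 (at most 10 hits per read, equally good hits placed at random), and reads starting in an exon of Ensembl 88 were counted with QuasR 1.18.0. FastQC 0.11.3 was also named. Symbols, biotypes and exons came from GENCODE M21 (GRCm38), which held 50376 of the genes. The other 224 were not tested, and 0 columns were left unused.

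The filter kept 13475 protein-coding genes whose level exceeded 1 CPM in 2 or more libraries. They were tested with edgeR 4.0.16 on R 4.3.3 (TMM, glmQLFit with legacy = TRUE, glmQLFTest), with sorting date as covariate and Benjamini-Hochberg adjustment over all genes tested. The fit had a common dispersion of 0.0978 and 2 residual and 2.79 prior degrees of freedom. Each standard error follows from the F statistic and the log2 fold change. Within-pair differences used log2 CPM with a prior count of 2, and ratios and orders of levels used exact sign-flip permutation tests. The procedure was tested on simulated counts with no effect of sorting date and with changes far larger than those of the members. That test does not bear on differences as small as theirs. The pairing comes from the sorting dates in the labels, and after removal of group means the correlation between libraries of the same date was 0.18, 0.104 and 0.116, against −0.354 to 0.247 between dates. Between libraries the Pearson correlation of log2 CPM was 0.914 to 0.976, and no library was a copy of another. Each library pools 4 mice, so p-values measure the spread between pools, and count-based precision covers counting error only.

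The members, gene lists and tests were chosen with earlier results of these data known. Named were all members, the 3 most abundant genes and the 3 of smallest p in each list, the standard subunits, Irf1, Rfx5 and Ciita, and the 5 genes most correlated with the members, of which the text gives those that bear on it. Some results are not reported here. Marker lists were summed in CPM. Alternatives were 3 other normalizations (DESeq2 size factors, library size, upper quartile), DESeq2 1.42.0, limma-voom (limma 3.58.1), legacy = FALSE, robust dispersions, 3 other filters, all biotypes, no replicate block, sorting year in place of date, each pair left out, an adjusted p of 0.1, another prior count and another gene length. The counts of members higher in each pair, and of those with an unadjusted p under 0.05, were repeated under alternatives chosen after seeing the data. Promoter sequences are from RefSeq on GRCm38.p6.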

Additional observations from a re-analysis of the deposited data

Results flagged for a closer look

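Nlrc5 was singled out because its log2 difference (labelled flt3L-/- minus wt) was −0.54 in the pair sorted in 2017 and above 0, at 0.40 and 0.04, in both pairs sorted in 2016. The difference between the years was not tested.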

How the results depend on the processing

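The 10 members' log2 fold changes were refitted under 16 other settings, and 159 of 160 values kept their direction and their side of an adjusted p of 0.05. The exception was Nlrc5, which was 0.22 without pair 3 and −0.25 to 0.22 over the pairs left out. The cause was not tested. With all libraries, the members' median stayed between 0.36 (library size only) and 0.43 (no replicate block), and with a pair left out between 0.21 and 0.48. The count of members higher in each pair was 8 under 3 other scalings and another prior count, and 8 to 9 in both remaining pairs when a pair was left out.

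The number of members with an unadjusted p under 0.05 was 0 without the replicate block (sorting date left out), 1 with sorting year in its place and 0 to 2 with a pair left out (0 without pair 2 and without pair 3). DESeq2 called 21 of all genes. The log2 ratio of B2m to the heavy chains was −0.15 without pair 3 and reached 0.14 without pair 1, and other ratios kept their direction. Listed genes with an unadjusted p under 0.05 numbered 0 to 2 (other heavy chains), 0 (loading and trimming), 1 to 2 (regulators), 0 to 7 (other interferon-induced genes) and 0 to 4 (class II) with a pair left out. With DESeq2 they were 5, 0, 2 and 5 for the first 4 of these lists. Without the block, loading and trimming had 0 and regulators 2. With 2 residual degrees of freedom, small differences could not be detected.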
